A study of Mus musculus with 33 samples.

Results

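The genes described here are those of the mitochondrial genome, taken as every gene of the mouse annotation (GENCODE vM21, GRCm38, the assembly also called mm10) whose symbol begins with mt-. The annotation holds 37 of them, which are 13 protein genes, 2 rRNA genes and 22 tRNA genes. All 13 protein genes had a row among the 31054 genes counted. The 24 rRNA and tRNA genes had no row there and could not be analysed.

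The libraries came from a mouse model of tolerance to a pig islet xenograft. All mice were DEREG mice on a C57BL/6 background, whose transgene puts the diphtheria toxin receptor and enhanced GFP under the Foxp3 promoter, so that regulatory T cells (Tregs) can be sorted as CD4+GFP+ cells. Tolerant mice carried 4000 IEQ (islet equivalents) of porcine neonatal islet cell clusters (NICC) under the renal capsule, received 500 µg doses of MR-1, an antibody to CD154, and 500 µg of CTLA4-Fc, and were sampled 100 days after transplantation, while naive mice had neither graft nor treatment. Bulk RNA-Seq was made from 11 subsets with 3 libraries each, 33 in all.

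The spleen gave 7 subsets. SP/naive Tregs, SP/naive CD4+ cells (CD4+Foxp3- T cells) and SP/naive CD45+CD4- cells (leukocytes left after CD4 depletion) came from naive mice. SP/CD127-/lo Tregs, SP/CD127hi Tregs, SP/tolerant CD4+ cells and SP/tolerant CD45+CD4- cells came from tolerant mice. Graft Tregs were sorted from the infiltrate of the xenograft. The draining lymph node of the kidney (DLN) gave DLN/naive Tregs from naive mice and DLN/CD127-/lo and DLN/CD127hi Tregs from tolerant mice. According to the study each library was a pool of mice. By the numbers of mice the study gives, the pools of different subsets came from the same tolerant or naive mice. The naive mice of each organ were also too few for separate pools within a subset. The labels do not say which mice went into which pool. The libraries counted in each n are therefore not independent where subsets are pooled or compared, nor within a naive subset. Permutation p-values over pooled subsets are too small, and edgeR p-values treat the libraries of a naive subset as independent. The n and SD of a naive subset do not stand for separate groups of mice. All p-values measure only the spread between these libraries. Tolerant mice and the naive mice used for the spleen were male and the naive mice used for the DLN were female, and all DLN libraries were sequenced on a MiSeq and all others on a NextSeq 500. A difference between DLN and spleen therefore cannot be told apart from the sequencer, and one between DLN/naive Tregs and the other DLN Tregs cannot be told apart from the sex of the mice.

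Mitochondria keep a small circular genome that is transcribed from both strands as long precursors, which are cut into single mRNAs at the tRNAs that lie between them. Its protein genes all encode core subunits of oxidative phosphorylation (OXPHOS), and the remaining subunits are encoded in the nucleus and imported. In T cells, regulatory T cells included, oxidative phosphorylation is a known source of energy beside glycolysis.

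The protein genes fall into 4 complexes. mt-Nd1, mt-Nd2, mt-Nd3, mt-Nd4, mt-Nd4l, mt-Nd5 and mt-Nd6 encode subunits of complex I, the NADH dehydrogenase. mt-Cytb encodes cytochrome b of complex III. mt-Co1, mt-Co2 and mt-Co3 encode the catalytic core of complex IV, cytochrome c oxidase, and mt-Atp6 and mt-Atp8 encode subunits of complex V, the ATP synthase. mt-Nd6 (chrM:13552-14070) lies on the minus strand and the other 12 on the plus strand, from mt-Nd1 (chrM:2751-3707) to mt-Cytb (chrM:14145-15288).

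Counts on genes ran from 2550698 to 4615283 in the spleen and graft libraries and from 844039 to 1935323 in the DLN libraries. The summed level of 4 Treg genes (Foxp3, Il2ra, Ctla4 and Ikzf2) was 5173 to 18990 CPM (counts scaled to the counts on genes of each library) in the Treg libraries and 59.5 to 1607 CPM in the Foxp3- subsets. Some libraries stood apart. In SP/CD127-/lo Treg replicate 1, 16.6% of uniquely mapped pairs lay outside genes, against 27.8% to 49.9% in the other spleen and graft libraries, and it had the highest share of multimapping pairs of all libraries (14.1%). Graft Tregs held 120, 870 and 44.6 CPM of 12 kidney tubule genes, against at most 85.3 CPM in any other library. All 12 genes had counts in at least 1 graft library. Kap, a proximal tubule gene, had 103, 777 and 12.6 CPM of these sums. DLN/CD127hi Tregs held 953, 1297 and 803 CPM of 12 macrophage genes, against 4.56 to 924 CPM in the other DLN Tregs. The summed level of 5 erythroid genes was 918 CPM in SP/CD127hi Treg replicate 3, 525 CPM in SP/CD127-/lo Treg replicate 3, 299 CPM in SP/naive CD4+ replicate 1, and 114 and 127 CPM in SP/tolerant CD45+CD4- replicates 1 and 3, against at most 29.2 CPM in any other library. The 6 mouse islet genes were at 0 in all graft Treg libraries, which does not measure cells of the porcine islets, as reads were mapped to the mouse genome.

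Which of the 13 genes could be measured differed by orders of magnitude. mt-Cytb had 3185 to 84965 counts per library, mt-Co1 2345 to 52457 and mt-Nd1 1812 to 60865. mt-Nd2, mt-Nd4, mt-Nd5 and mt-Nd6 had median counts of 6572, 6404, 4310 and 2827. By contrast the median count was 14 for mt-Co3, 10 for mt-Co2, 10 for mt-Atp6, and 0 for both mt-Atp8 and mt-Nd4l, and mt-Nd3 had 4 to 704 counts with a median of 180. The low genes lie side by side on the mitochondrial genome, from mt-Co2 (chrM:7013-7696) to mt-Nd4l (chrM:9877-10173).

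The same stretch has an annotated copy in the nuclear genome. On the minus strand of chr1:24611535-24616197, a stretch of 4663 bases, the annotation lists 7 unprocessed pseudogenes, none of which had a row in the count tables. Transcripts of the mitochondrial genes were compared with all other annotated transcripts in windows of 75 bases, the length of a read. Of the windows of mt-Co3, 99.9% were found unchanged in the copy Gm28437, and of those of mt-Co2 and mt-Atp6 99.5% were found in nuclear copies. mt-Nd4l shared 98.7% of its windows and mt-Nd3 97.8%. mt-Nd4 shared 61.5%, mt-Co1 39.8%, mt-Nd2 5.71% and mt-Nd5 1.66%, while mt-Nd1, mt-Nd6 and mt-Cytb shared none. Thus the 5 genes with over 97% shared windows had median counts of 0 to 180, and the 7 genes with 0% to 61.5% shared windows had median counts of 2827 to 22716. mt-Atp8 shared no window with an annotated transcript and still had at most 4 counts. It lies between mt-Co2 and mt-Atp6 and overlaps mt-Atp6 by 43 bases, and the 233 bases between the copies of these 2 genes on chromosome 1 (chr1:24614652-24614884) are not annotated and were not compared here.

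The starts of 3 genes show the range. The lines give the start of mt-Co3 (chrM:8607-8681) with its copy Gm28437 (chr1:24613897-24613971, minus strand), the start of mt-Nd3 (chrM:9459-9533) with its copy Gm28438 (chr1:24613045-24613119, minus strand), and the start of mt-Cytb (chrM:14145-14219), which had no copy among the annotated transcripts. Sequences run 5′ to 3′ and are from GENCODE vM21, and capitals mark bases that differ between gene and copy.
mt-Co3: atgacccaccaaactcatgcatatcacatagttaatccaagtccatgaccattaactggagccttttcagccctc
Gm28437: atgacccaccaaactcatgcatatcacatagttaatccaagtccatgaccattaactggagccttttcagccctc
mt-Nd3: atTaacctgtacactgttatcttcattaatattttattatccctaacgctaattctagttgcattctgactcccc
Gm28438: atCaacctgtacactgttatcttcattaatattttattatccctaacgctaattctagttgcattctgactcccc
mt-Cytb: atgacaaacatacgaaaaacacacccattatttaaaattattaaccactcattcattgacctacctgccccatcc

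mt-Co3 and Gm28437 were identical over all 783 aligned bases. mt-Nd3 and Gm28438 differed at 1 of 345 aligned bases, T3C, counted from the first base of the gene with the mitochondrial base first. The chromosome 1 copy of mt-Co1, Gm29216, differed at 6 of 492 bases, and that of mt-Nd4, Gm28439, at none of 876. Windows of mt-Co1 were also found in Gm13340, which is not among the pseudogenes of that stretch. A read that maps to more than 1 place is set apart as multimapping in these tables and not counted on a gene. How many of the multimapping pairs came from these genes was not tested, because the tables give their number only per library (6.43% to 14.1% of all pairs).

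**Figure D1:**
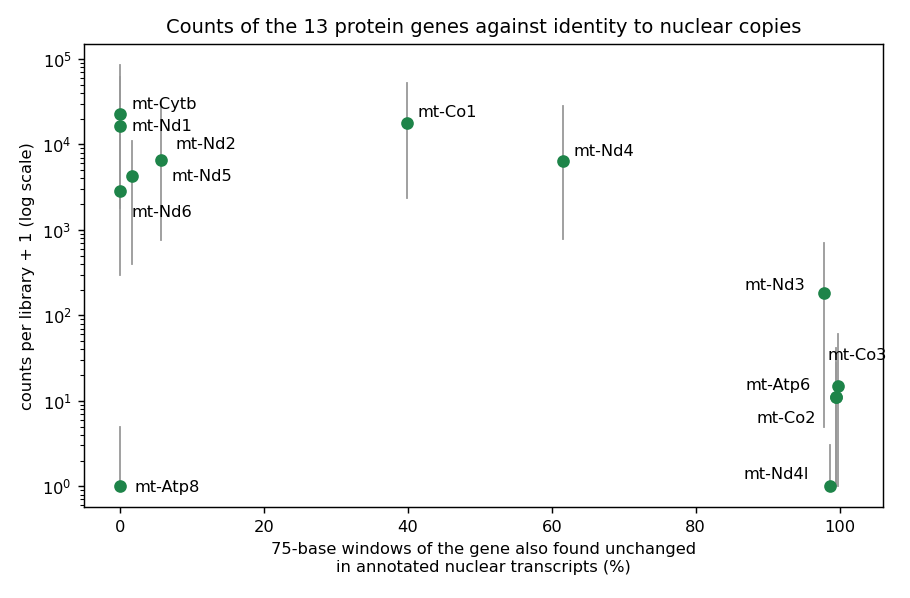
Counts per library plus 1 (log scale) of the 13 mitochondrial protein genes against the percentage of their 75-base windows found unchanged in annotated nuclear transcripts; points are medians over 33 libraries and lines run from the lowest to the highest library. The 5 genes at 97.8% or above have medians of at most 180, and mt-Atp8, at 0%, is the exception among the others with a median of 0.

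Levels between genes were compared per length, as CPM per kilobase of the gene. The median over the 33 libraries was 5999 for mt-Cytb, 5339 for mt-Nd1, 3637 for mt-Co1, 2186 for mt-Nd2, 1699 for mt-Nd6, 1458 for mt-Nd4 and 705 for mt-Nd5. mt-Nd3 followed with 138, and the other 5 genes had at most 5.45. Within libraries mt-Cytb lay above mt-Nd1 per kilobase in all 27 CD4+ and Treg libraries (ratios 1.02 to 1.68) and below it in 5 of the 6 CD45+CD4- libraries (0.673 to 1.06). mt-Co1 lay above mt-Nd2 in the same 27 libraries and in 3 of the 6 CD45+CD4- libraries. mt-Nd6 lay above mt-Nd4 in 20 of 33 libraries, whereas mt-Nd4 lay above mt-Nd5, and mt-Nd5 above mt-Nd3, in all 33. How many pairs of mt-Co1 and mt-Nd4 were not counted because they also matched a copy was not tested, and a pair with 1 read outside the shared windows can still be counted. Set against the number of windows not found in nuclear transcripts, the medians were 6414 CPM per 1000 such windows for mt-Cytb, 6349 for mt-Co1, 5786 for mt-Nd1, 4002 for mt-Nd4, 2496 for mt-Nd2, 1981 for mt-Nd6 and 747 for mt-Nd5. mt-Nd3 had 8023 and mt-Co3 4271 on this scale, but with only 6 and 1 such windows. On that scale mt-Nd4 lay above mt-Nd2 and mt-Nd6, which it lay below per kilobase.

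The share of all counts on genes that fell on the 13 genes, called the mitochondrial share below, was highest in the graft and lowest in the DLN. Graft Tregs had shares of 6.74%, 4.33% and 5.30% (mean 5.46% ± 1.21, SD, n = 3). SP/CD127-/lo Tregs had 4.35%, 2.32% and 3.18% (3.28% ± 1.02, SD, n = 3) and SP/CD127hi Tregs 2.71%, 3.53% and 3.20% (3.14% ± 0.414, SD, n = 3). In SP/naive Tregs the shares were 2.42%, 2.33% and 1.81% (2.19% ± 0.326, SD, n = 3). The lowest graft library thus lay beside the highest SP/CD127-/lo library and above all other spleen libraries.

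Among the Foxp3- subsets the means lay close together. They were 2.66% ± 0.652 in SP/naive CD4+ cells, 2.24% ± 0.249 in SP/tolerant CD4+ cells, 2.43% ± 0.888 in SP/naive CD45+CD4- cells and 2.35% ± 0.267 in SP/tolerant CD45+CD4- cells (SD, n = 3 each), and all 4 ranges overlapped. DLN/naive Tregs had 1.35%, 0.979% and 1.37%, DLN/CD127-/lo Tregs 1.21%, 1.15% and 1.25%, and DLN/CD127hi Tregs 1.45%, 2.95% and 1.71%. All 3 DLN/CD127hi libraries lay above the other 6 DLN libraries, and replicate 2 lay far above the other 2. In the order of the 11 means, the ranges were separate at the step from DLN/naive to DLN/CD127hi Tregs and nearly so at the step from SP/CD127-/lo to graft Tregs. All other neighbours overlapped and do not differ beyond their spread. In bulk samples fewer cells of a type and less RNA per cell cannot be told apart.

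**Figure D2:**
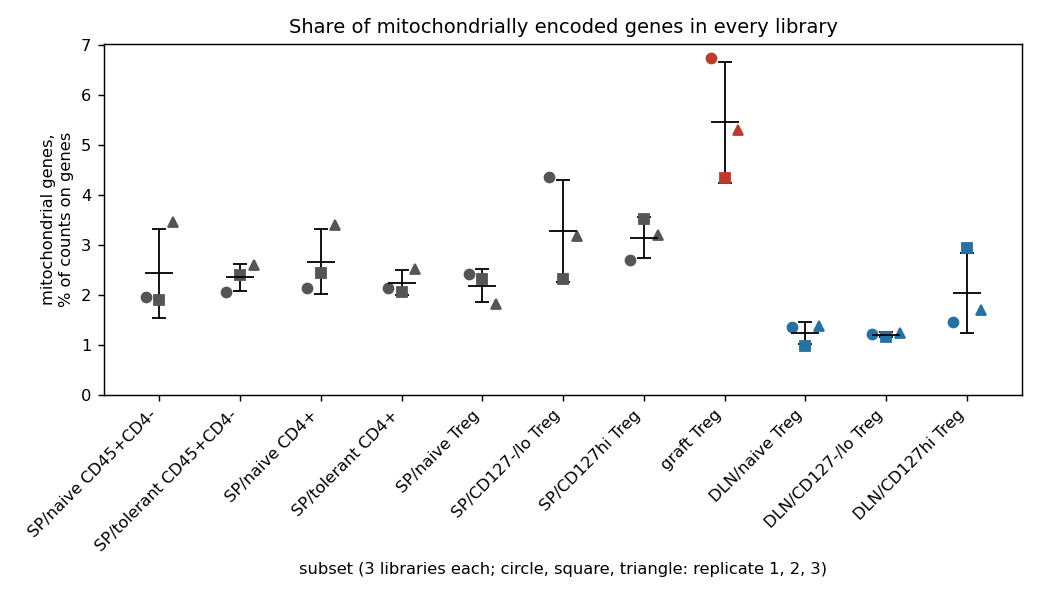
Mitochondrial share, in percent of counts on genes, of the 33 libraries by subset; symbols are replicates, the black bar is the mean and the whiskers are 1 SD. The 3 graft Treg libraries sit at 4.33% to 6.74%, and 8 of 9 DLN libraries sit at 1.71% or lower.

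The share was tested in 6 pooled contrasts with exact two-sided permutation tests, in which subsets sorted from the same mice count as separate libraries, so that the p-values are too small. The difference was 2.59 percentage points between graft Tregs (n = 3) and all splenic Tregs (n = 9), with an exact permutation p = 0.0182 and an adjusted p of 0.0545 over the 6 contrasts, which misses 0.05. The smallest p this contrast allows is 0.00909. Leaving out any of the 12 libraries gave differences of 1.94 to 3.15 points and adjusted exact permutation p-values of 0.0364 (without SP/CD127-/lo Treg replicate 1) to 0.145 (without graft replicate 1 or 3), of which only the first passed. DLN Tregs (n = 9) had 1.38 points less than splenic Tregs (n = 9), with p = 0.000946 and an adjusted p of 0.00568 by the exact permutation test, and the ranges overlapped (0.979% to 2.95% against 1.81% to 4.35%). The other contrasts did not pass. Splenic Tregs of tolerant mice were 1.03 points above those of naive mice (exact permutation p = 0.0714, n = 6 and 3, adjusted 0.143). DLN Tregs of tolerant mice were 0.385 points above those of naive mice (exact permutation p = 0.333, n = 6 and 3, adjusted 0.346), of which 0.120 points were left without DLN/CD127hi Treg replicate 2. Splenic Tregs were 0.418 points above CD4+Foxp3- T cells (exact permutation p = 0.266, n = 9 and 6), and CD45+CD4- cells were 0.312 points below all splenic CD4+ cells and Tregs (exact permutation p = 0.346, n = 6 and 15).

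Graft Tregs had higher mean levels of all 7 genes with high counts (mt-Nd1, mt-Nd2, mt-Co1, mt-Nd4, mt-Nd5, mt-Nd6 and mt-Cytb) than each of the 3 splenic Treg subsets, and 3 to 6 members passed the test. Levels of single genes are given from here on as normalised CPM (CPM scaled by TMM factors), and calls are those of edgeR's quasi-likelihood test with a Benjamini-Hochberg adjusted p under 0.05 over 25347 genes. Of the 13 members, 12 passed the filter of 1 CPM in at least 1 library, and mt-Nd4l did not. How many of all genes lacked overlap was not computed, so a lack of overlap between groups does not set a gene apart below. mt-Cytb, the cytochrome b of complex III, had 23009, 16536 and 18898 normalised CPM in graft Tregs and 7153, 5904 and 5031 in SP/naive Tregs. It had 7338, 10953 and 9747 in SP/CD127hi Tregs and 16708, 6994 and 11176 in SP/CD127-/lo Tregs. The graft libraries lay above the SP/naive and SP/CD127hi libraries throughout, but SP/CD127-/lo replicate 1 lay above graft replicate 2.

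Against SP/naive Tregs, 6 of 12 members were called, all higher in the graft, beside 0.13% of all genes called in either direction. mt-Cytb was 3.23-fold higher (log2 fold change 1.69, SE 0.18, adjusted p = 6.83e-14, edgeR), mt-Nd4 3.07-fold (adjusted p = 1.56e-06), mt-Nd2 2.85-fold (adjusted p = 1.19e-05), mt-Nd5 2.76-fold (adjusted p = 0.00603), mt-Nd1 2.68-fold (adjusted p = 9.09e-09) and mt-Co1 2.55-fold (adjusted p = 6.13e-08). The groups did not overlap for any of these 6 genes, nor for mt-Nd6, mt-Nd3 and mt-Co3, which were not called (9 of 12 members). The complex I genes that were called thus stood beside complex III and complex IV with folds of like size. mt-Nd1 had 16483, 10062 and 11730 normalised CPM in graft Tregs and 5894, 4716 and 3654 in SP/naive Tregs, and mt-Co1 had 14206, 10379 and 11980 against 5563, 4565 and 4201. mt-Nd6, the only gene of the other strand, was not called: its values were 2061, 1130 and 1381 against 987, 1071 and 679 (log2 fold change 0.74, SE 0.34, adjusted p = 0.509). mt-Nd3, with 191, 135 and 178 against 67.7, 61.2 and 62.4, had a log2 fold change of 1.40 but an SE of 0.88 and was not called (adjusted p = 0.793). Without SP/naive Treg replicate 3, mt-Nd5 was no longer called (adjusted p = 0.0944), and the other 5 calls were kept whichever library was left out.

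Against SP/CD127hi Tregs, 3 of 12 members were called, all higher in the graft, beside 0.103% of all genes. These were mt-Nd1 (2.16-fold, log2 fold change 1.11, adjusted p = 4.72e-05), mt-Cytb (2.08-fold, adjusted p = 3.46e-05) and mt-Nd2 (2.01-fold, adjusted p = 0.0483), all by edgeR and all without overlap. Of the 12 members, called or not, 7 did not overlap. mt-Nd2 had 8475, 4563 and 5012 normalised CPM in the graft and 2404, 2958 and 3628 in SP/CD127hi Tregs. Its call was lost without graft replicate 1 (log2 fold change 0.68, adjusted p = 0.481) and without SP/CD127hi replicate 1 (0.87, adjusted p = 0.248) or replicate 2 (adjusted p = 0.0827). mt-Co1 was 0.73 higher on the log2 scale without overlap and missed the threshold (adjusted p = 0.072).

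Against SP/CD127-/lo Tregs, 4 of 12 members were called, all higher in the graft, beside 0.0829% of all genes. They were mt-Nd2 (2.19-fold, adjusted p = 0.0122), mt-Nd4 (2.04-fold, adjusted p = 0.0431), mt-Nd1 (1.90-fold, adjusted p = 0.00438) and mt-Cytb (1.68-fold, adjusted p = 0.0421), by edgeR. mt-Nd4 had 7576, 4216 and 4877 normalised CPM in the graft and 3529, 2037 and 2621 in SP/CD127-/lo Tregs, without overlap. For mt-Co1 the log2 fold change was 0.36 and the groups overlapped (adjusted p = 0.692). None of the 4 genes was called without graft replicate 1, without SP/CD127-/lo replicate 2 or without SP/CD127-/lo replicate 3.

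The standard errors of this test are drawn towards those of genes of like abundance. That of mt-Cytb was 0.18 against SP/naive Tregs (SD 1066 on a mean of 6029 normalised CPM) and 0.18 against SP/CD127-/lo Tregs (SD 4873 on a mean of 11626), although the libraries of the latter were far more spread. That of mt-Nd3 was 0.88 although its SP/naive libraries had an SD of 3.46 on a mean of 63.8.

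The graft calls depended on the test. The likelihood ratio test of edgeR, run on the same unadjusted counts, called no member in these or in any of the 13 comparisons. Its 0 therefore does not set a comparison without calls apart. The study names this test (glmLRT) for its own calls. At a false discovery rate under 0.05 it lists mt-Cytb, mt-Nd4, mt-Nd2 and mt-Nd1 as upregulated in CD127hi or graft Tregs. The 0 found here is thus not the published result, and why they differ was not tested. DESeq2 called 5, 0 and 1 in the 3 graft comparisons. The kidney tubule genes moved with the graft. They stood at 120, 870 and 44.6 CPM in graft replicates 1, 2 and 3, beside mitochondrial shares of 6.74%, 4.33% and 5.30%. Macrophage genes were at 60.8, 7.70 and 488 CPM in the same libraries. The part of either in the graft values was not tested. Multimapping pairs made up 12.9%, 10.4% and 10.4% in graft Tregs and 8.23%, 8.45% and 9.08% in SP/naive Tregs, but 14.1%, 10.04% and 10.3% in SP/CD127-/lo Tregs and 9.52%, 10.3% and 10.9% in SP/CD127hi Tregs, which overlapped the graft.

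**Figure D3:**
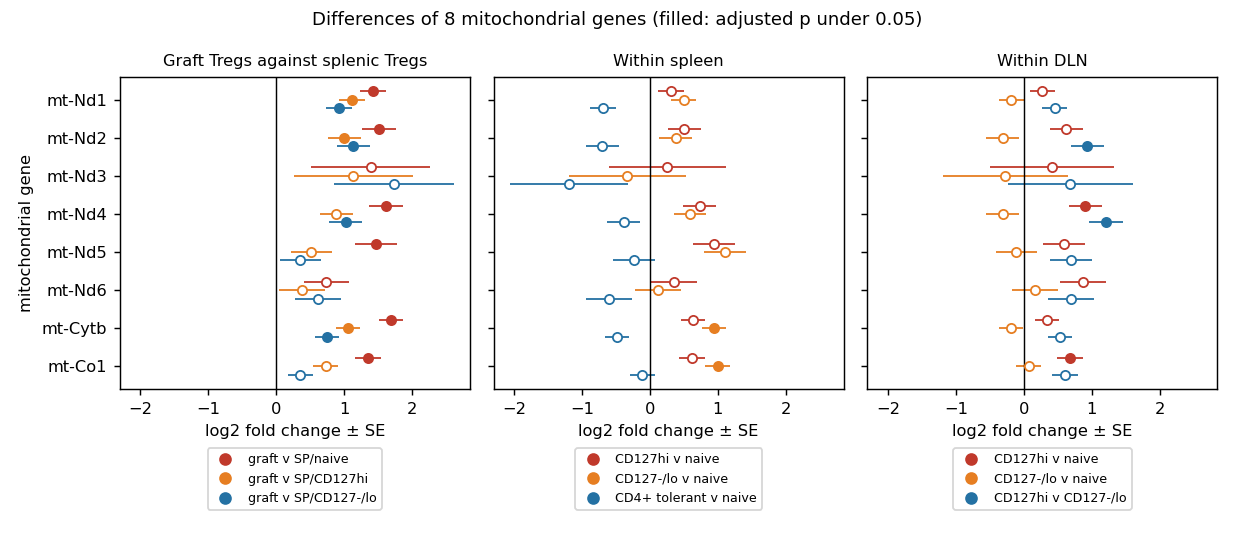
Log2 fold changes (points) and standard errors (lines) of 8 mitochondrial genes in 9 comparisons, 3 libraries a group, from edgeR's quasi-likelihood fit; filled points have an adjusted p under 0.05. In the left panel all values are above 0, and mt-Nd3 and mt-Nd6 are open in all 3 graft comparisons.

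The nuclear genes of the same complexes were set beside them. The summed counts of 76 nuclear encoded OXPHOS subunits made up 2.35%, 2.73% and 2.01% of the counts in graft Tregs and 1.88% to 3.43% in splenic Tregs (mean difference -0.0541 points, exact permutation p = 0.918, n = 3 and 9). None of the 76 genes was called in any of the 13 comparisons, in which 0.0197% to 1.04% of all genes were, so the count does not set them apart from all genes. Of the 76, 66 had a log2 fold change above 0 against SP/naive Tregs, 57 against SP/CD127hi Tregs and 11 against SP/CD127-/lo Tregs. Their median log2 fold change was 0.27 against SP/naive Tregs, 0.28 against SP/CD127hi Tregs and -0.35 against SP/CD127-/lo Tregs, where the median of all genes was 0. The medians of the 12 mitochondrial genes in the same comparisons were 1.40, 0.89 and 0.81.

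Counts on mitochondrial genes per count on nuclear OXPHOS genes were therefore set side by side, a ratio chosen after its values were seen. Graft Tregs had ratios of 2.87, 1.59 and 2.64 and splenic Tregs 0.727 to 1.56, which did not overlap (exact permutation p = 0.00909, the smallest possible with n = 3 and 9, adjusted 0.0273 over 6 contrasts). Graft replicate 2 lay within the range of CD45+CD4- cells (1.27 to 1.61). DLN Tregs had 0.470 to 1.22, lower than splenic Tregs (exact permutation p = 0.000946, adjusted 0.00568, n = 9 each). CD45+CD4- cells had a mean ratio of 1.45 ± 0.142 (SD, n = 6) against 1.19 ± 0.245 (SD, n = 15) in splenic CD4+ cells and Tregs (exact permutation p = 0.016, adjusted 0.0321). In this last contrast the mitochondrial share itself was slightly lower, and the nuclear OXPHOS share was 1.65% against 2.30% (exact permutation p = 0.00247, adjusted 0.0148, n = 6 and 15).

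**Figure D4:**
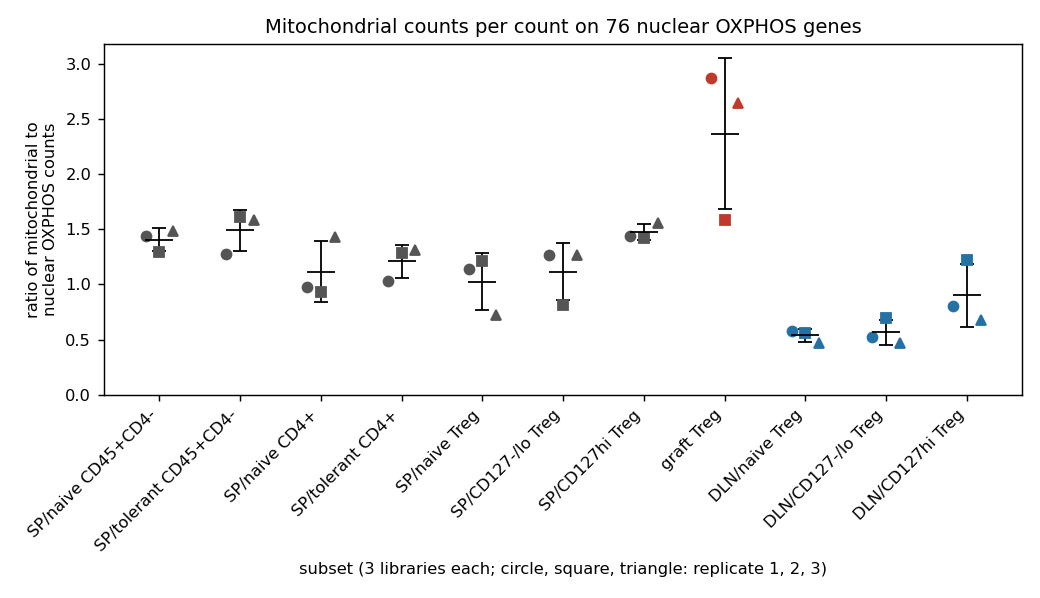
Ratio of counts on the 13 mitochondrial genes to counts on 76 nuclear OXPHOS genes in the 33 libraries by subset; symbols are replicates, the black bar is the mean and the whiskers are 1 SD. Graft Tregs reach 2.87, 2 of the 3 libraries stand above all others, and 8 of 9 DLN libraries sit at 0.802 or lower.

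Within the spleen, SP/CD127-/lo Tregs had 2 of 12 members called against SP/naive Tregs, both higher, beside 0.071% of all genes. mt-Co1, the catalytic subunit of complex IV, had 14175, 5698 and 8688 normalised CPM against 5563, 4565 and 4201 (1.99-fold, SE 0.19 on the log2 scale, adjusted p = 0.000712, edgeR). The groups did not overlap, though SP/CD127-/lo replicate 2 lay close to the highest naive library. mt-Cytb was 1.93-fold higher (adjusted p = 0.000553) with overlapping groups. Both calls were lost without SP/CD127-/lo replicate 1, the library with few pairs outside genes: the log2 fold changes were then 0.59 for both, with adjusted p = 1 for mt-Co1 and 0.826 for mt-Cytb (edgeR). DESeq2, limma-voom, a stricter filter (10 or more counts in 3 or more libraries) and the model of the compared libraries alone called no member here. Of the 76 nuclear OXPHOS genes 74 had a log2 fold change above 0, with a median of 0.61 and none called, beside a median of 0.44 over the 12 mitochondrial genes. Malat1, a long noncoding RNA kept in the nucleus, moved with this comparison, with 9609 ± 3797 against 47593 ± 25795 normalised CPM (SD, n = 3, adjusted p = 1.89e-32, edgeR), and it was called in every comparison except graft against SP/naive Tregs, DLN/CD127-/lo against DLN/naive Tregs and SP/naive Tregs against SP/naive CD4+ cells. It was higher in graft Tregs (34877 ± 10938) than in SP/CD127-/lo Tregs (log2 fold change 1.86, adjusted p = 4.38e-23) and SP/CD127hi Tregs (0.85, adjusted p = 9.30e-05). It is 1 of 3 nuclear lncRNAs looked at, with Neat1 and Kcnq1ot1, of which neither was called in any comparison. All 3 had log2 fold changes below 0 in SP/CD127-/lo against SP/naive Tregs, but in graft against SP/CD127hi Tregs only 1 of the 3 had one above 0 (median log2 fold change -0.07). Markers of other cells differed as well: the erythroid genes had a median log2 fold change of 6.33 with none called, from 0.248, 4.54 and 525 CPM in SP/CD127-/lo Tregs against at most 4.17 CPM in SP/naive Tregs, and both mitochondrial calls were kept without SP/CD127-/lo replicate 3. Ms4a1, a B cell gene, was called lower (log2 fold change -4.82, adjusted p = 0.00779, edgeR) and Trac, of the T cell receptor, higher (1.74, adjusted p = 0.00607). The part of Malat1 and of the other markers in the mitochondrial values was not tested.

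SP/CD127hi Tregs had no member called against SP/naive Tregs by edgeR's quasi-likelihood test (0 of 12, beside 0.0197% of all genes; 5 of 12 had an unadjusted p under 0.05, beside 5.09% of all genes), and none by DESeq2 or limma-voom. Without a filter on low counts mt-Cytb was called, as it was without SP/naive Treg replicate 1 or without SP/CD127hi replicate 1. All 7 genes with high counts had log2 fold changes above 0, from 0.31 for mt-Nd1 to 0.95 for mt-Nd5. mt-Nd5, of complex I, had 1354, 2291 and 1666 normalised CPM against 1114, 894 and 746, without overlap (SE 0.31, adjusted p = 0.628). It was 1 of 5 members without overlap. Between SP/CD127hi and SP/CD127-/lo Tregs no member was called either (0 of 12, beside 0.0907% of all genes, and 1 of 12 with an unadjusted p under 0.05, beside 6.74%), nor by DESeq2 or limma-voom. Their log2 fold changes ran from -0.37 to 0.24 over the 7 genes with high counts, and the groups overlapped for every gene.

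In the DLN, CD127hi Tregs had more mt-Nd4 than both other subsets. mt-Nd4, of complex I, had 1414, 2446 and 1781 normalised CPM in DLN/CD127hi Tregs, 950, 778 and 709 in DLN/CD127-/lo Tregs and 981, 865 and 1174 in DLN/naive Tregs. Every CD127hi library thus lay above all other DLN libraries. Against DLN/CD127-/lo Tregs, 2 of 12 members were called, both higher, beside 0.418% of all genes: mt-Nd4 (2.32-fold, log2 fold change 1.21, SE 0.24, adjusted p = 0.00151, edgeR) and mt-Nd2 (1.91-fold, adjusted p = 0.0394). mt-Nd2 had 1260, 2918 and 1080 against 990, 767 and 989. The call of mt-Nd4 was kept whichever library was left out, whereas that of mt-Nd2 was lost without DLN/CD127hi replicate 2 (log2 fold change 0.40, adjusted p = 0.746) and without DLN/CD127-/lo replicate 2 (0.91, adjusted p = 0.166). DESeq2 and the stricter filter called only mt-Nd4, and limma-voom and the model of the compared libraries alone called no member. With the log2 fold changes of all 12 members above 0, their median was 0.69, beside -0.01 over all genes.

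Against DLN/naive Tregs, 2 of 12 members were called in DLN/CD127hi Tregs, both higher, beside 0.951% of all genes. mt-Nd4 was 1.87-fold higher (log2 fold change 0.90, adjusted p = 0.0344, edgeR) and mt-Co1 1.60-fold (0.68, adjusted p = 0.0413). mt-Co1 had 2660, 5227 and 4641 normalised CPM against 2890, 2357 and 2579, and the groups overlapped. Neither gene was called without DLN/CD127hi replicate 2, without DLN/CD127hi replicate 3 or without DLN/naive replicate 2. Without DLN/naive replicate 1 only mt-Co1 and without DLN/naive replicate 3 only mt-Nd4 was called. DESeq2 called mt-Nd4, and limma-voom, the stricter filter and the model of the compared libraries alone called no member. The median log2 fold change was 0.65 over the members and 0.40 over all genes, and RLE normalization raised the values of all genes by a further 0.19. DLN/CD127-/lo Tregs had no member called against DLN/naive Tregs (edgeR, 0 of 12, beside 0.355% of all genes, and 0 with an unadjusted p under 0.05, beside 8.79%), nor by DESeq2 or limma-voom. The members' median was -0.15 while that of all genes was 0.58. Markers of other cells differed along with these contrasts. The summed level of 6 B cell genes was 662, 307 and 181 CPM in DLN/CD127hi, 74.4, 272 and 97.5 CPM in DLN/CD127-/lo and 49.2, 13.7 and 21.6 CPM in DLN/naive Tregs. Of these genes 3 were called higher in DLN/CD127hi than in DLN/naive Tregs, namely Cd79b (log2 fold change 7.70, adjusted p = 1.51e-07, edgeR), Ms4a1 and Ebf1, and 2 (Cd79b and Ms4a1) in DLN/CD127-/lo against DLN/naive Tregs, while none was called within tolerant DLN Tregs. The 12 macrophage genes summed to 953, 1297 and 803 CPM in DLN/CD127hi, 127, 924 and 104 CPM in DLN/CD127-/lo and 350, 4.56 and 493 CPM in DLN/naive Tregs, and none was called. Malat1 was lower in DLN/CD127hi than in DLN/CD127-/lo (log2 fold change -0.92, adjusted p = 7.72e-06, edgeR) and DLN/naive Tregs (-1.47, adjusted p = 4.88e-15). The part of these genes in the mitochondrial values was not tested.

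The difference between spleen and DLN in the CD127hi effect was tested as an interaction. For CD127hi against CD127-/lo, mt-Co1 had a log2 fold change 0.98 lower in the spleen than in the DLN (-0.98, SE 0.26, adjusted p = 0.0978, edgeR) and mt-Nd4 one of -1.07 (SE 0.34, adjusted p = 0.25). None of 12 members passed, beside 0.118% of all genes, and 6 had an unadjusted p under 0.05, beside 7.82% of all genes. Leaving out 1 library gave 0 to 2 calls, and RLE normalization or no filter on low counts gave 2 each. For CD127hi against naive Tregs, none of 12 members passed, beside 0.225% of all genes called. For tolerant against naive mice in CD4+ compared with CD45+CD4- cells, none of 12 passed either, beside 0.0473% of all genes. No member had an unadjusted p under 0.05 in the last 2 interactions, beside 7.93% and 5.14% of all genes.

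In the Foxp3- subsets no member was called between tolerant and naive mice. In SP/tolerant CD4+ cells against SP/naive CD4+ cells, 0 of 12 members were called by edgeR (beside 0.107% of all genes, and 3 with an unadjusted p under 0.05, beside 7.01%) or by DESeq2 or limma-voom. Without a filter on low counts mt-Nd1 was called, and without SP/naive CD4+ replicate 1 mt-Nd1 and mt-Cytb were. mt-Nd1 had 3965, 3461 and 3835 normalised CPM in tolerant and 4157, 5793 and 8223 in naive mice, without overlap (log2 fold change -0.69, SE 0.19, adjusted p = 0.162). All 12 log2 fold changes were below 0, with a median of -0.61, beside -0.23 over all genes. In SP/tolerant CD45+CD4- cells against SP/naive CD45+CD4- cells, 0 of 12 were called (beside 0.0355% of all genes, and 0 with an unadjusted p under 0.05, beside 4.46%), the median was -0.14, and the groups overlapped for every member. DESeq2 and limma-voom called none there either.

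Between cell types of naive spleen, CD4+ cells had 2 of 12 members called against CD45+CD4- cells, both higher, beside 1.04% of all genes. mt-Co1 had 6844, 6509 and 8735 normalised CPM in SP/naive CD4+ cells and 3249, 1545 and 5782 in SP/naive CD45+CD4- cells (2.09-fold, log2 fold change 1.06, adjusted p = 1.85e-05, edgeR). The groups did not overlap, and the call was kept whichever library was left out, but DESeq2, limma-voom, the stricter filter and the model of the compared libraries alone called no member in this comparison. mt-Cytb was 1.61-fold higher with overlap (adjusted p = 0.0155) and was not called without SP/naive CD45+CD4- replicate 1 (adjusted p = 0.078), replicate 2 (0.339) or SP/naive CD4+ replicate 3 (0.476). Nuclear OXPHOS genes were above 0 in 70 of 76 cases, with a median log2 fold change of 0.77 and none called. Malat1 was higher in CD4+ cells (log2 fold change 1.34, adjusted p = 1.98e-13, edgeR), while the median of the 3 nuclear lncRNAs was -0.59. Between SP/naive Tregs and SP/naive CD4+ cells, 0 of 12 members were called (edgeR, beside 0.264% of all genes, and 3 with an unadjusted p under 0.05, beside 6.71%), nor any by DESeq2 or limma-voom. RLE normalization called 1 (mt-Cytb), no filter on low counts 2 (mt-Co1 and mt-Cytb), and leaving out 1 library 0 to 2. mt-Cytb came nearest, with 7153, 5904 and 5031 against 7284, 8078 and 13153 normalised CPM (log2 fold change -0.66, SE 0.18, adjusted p = 0.0663).

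Over the 13 comparisons 21 calls were made, on 6 of the 12 members tested. mt-Nd6, mt-Nd3 and the 4 tested genes with median counts of 14 or less were never called. Standard errors of the log2 fold changes between graft and SP/naive Tregs were 0.18 for mt-Cytb, 0.25 for mt-Nd4, 0.34 for mt-Nd6 and 0.88 for mt-Nd3, and 1.82 for mt-Co3, so a log2 difference near 1.40, which passed for mt-Nd1, did not pass for mt-Nd3 or mt-Co3 in this fit.

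The make-up of the mitochondrial counts differed between CD45+CD4- cells and splenic T cells, of which the total share did not pass. For each of 8 genes with a median of at least 30 counts, the part of the mitochondrial counts was compared in the 6 pooled contrasts, 48 exact permutation tests in all. These were chosen after the values were seen, and since the parts add up to the whole, a higher part of some genes lowers that of others. Adjusted over the 48 tests, 10 passed 0.05. Here too subsets sorted from the same mice count as separate libraries, so that these p-values are too small.

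In CD45+CD4- cells against splenic CD4+ cells and Tregs, 6 genes passed, 4 with a higher and 2 with a lower part. mt-Co1 made up 9.82% to 18.9% of mitochondrial counts in the 6 CD45+CD4- libraries and 19.8% to 32.7% in the 15 others, without overlap (mean difference -9.96 points, exact permutation p = 3.69e-05, the smallest possible, adjusted 0.000987). mt-Cytb was also lower (26.5% against 30.4%, adjusted exact permutation p = 0.0119). Of the complex I genes, mt-Nd1 (25.3% against 19.3%, adjusted p = 0.00118), mt-Nd2 (11.8% against 8.19%, adjusted p = 0.0117), mt-Nd4 (10.4% against 7.74%, adjusted p = 0.0206) and mt-Nd6 (5.04% against 3.17%, adjusted p = 0.0062) were higher by the same exact permutation test. The ranges of these 4 genes overlapped those of the T cells. The other complex I genes compared did not pass. mt-Nd5 was slightly lower (5.15% against 5.47%, exact permutation p = 0.511) and mt-Nd3 slightly higher (0.269% against 0.239%, exact permutation p = 0.431). mt-Nd4 missed the threshold without SP/naive CD45+CD4- replicate 2 (adjusted p = 0.0523).

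Between splenic Tregs and CD4+Foxp3- T cells, mt-Nd4 (8.58% ± 1.51, SD, n = 9, against 6.48% ± 0.717, SD, n = 6, adjusted exact permutation p = 0.0119) and mt-Nd6 (3.61% ± 0.796 against 2.52% ± 0.217, adjusted p = 0.0256) made up a larger part in Tregs. mt-Nd6 ranged from 2.37% to 4.98% in splenic Tregs and from 2.23% to 2.84% in CD4+Foxp3- T cells. It passed no longer without SP/tolerant CD4+ replicate 1 or without replicate 2 (adjusted p = 0.0523 each). Within splenic Tregs, mt-Nd1 made up 17.9% to 19.8% in tolerant and 20.8% to 23.5% in naive mice, and mt-Nd5 4.84% to 6.41% against 4.16% to 4.44%. Neither overlapped, with an exact permutation p of 0.0238 each, the smallest possible with n = 6 and 3, and neither passed after adjustment (0.0879). No part passed in graft against splenic Tregs, where mt-Nd6 (2.49% against 3.61%, exact permutation p = 0.0364, adjusted 0.114) came nearest.

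**Figure D5:**
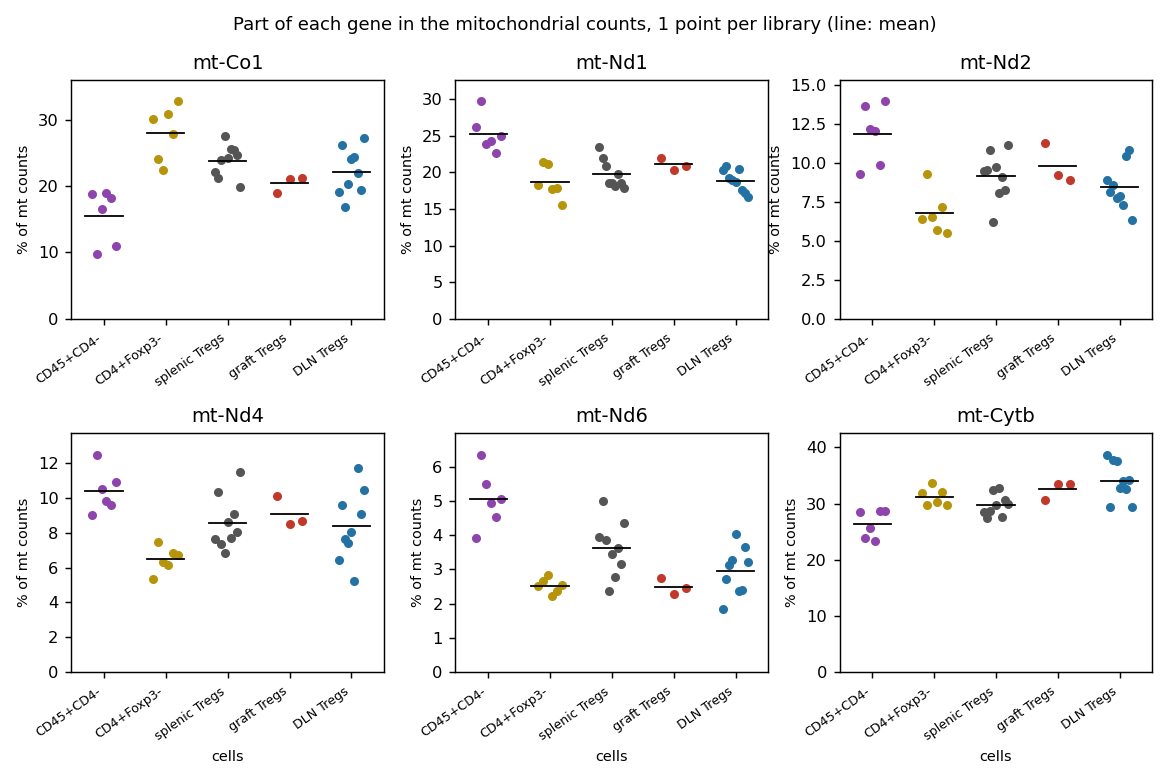
Part of 6 genes in the mitochondrial counts, in percent, 1 point per library and a line at the mean, for CD45+CD4- (6 libraries), CD4+Foxp3- (6), splenic Treg (9), graft Treg (3) and DLN Treg (9) libraries. mt-Co1 lies at 9.82% to 18.9% in CD45+CD4- cells, below every splenic T cell library, and mt-Nd1 and mt-Nd6 have their highest means in CD45+CD4- cells.

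Between DLN and splenic Tregs the parts did not overlap for mt-Nd3. It had 4 to 29 counts in the DLN libraries and 165 to 338 in those of splenic Tregs, which is 0.0322% to 0.0854% and 0.108% to 0.355% of mitochondrial counts (exact permutation p = 4.11e-05, the smallest possible with n = 9 each, adjusted 0.000987). No library of one side reached the other. mt-Cytb made up 34.0% ± 3.43 in DLN and 29.8% ± 1.94 in splenic Tregs (SD, n = 9 each, adjusted exact permutation p = 0.0274), a call that was lost on leaving out any of 8 of the 18 libraries (adjusted p up to 0.0523). The other 6 genes did not pass. mt-Nd3 is the gene whose start differs from its nuclear copy only by the base shown in capitals above. Tissue and sequencer cannot be told apart in this contrast.

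Of 39 nuclear genes for its replication, transcription, RNA processing and translation, 0 were called in 11 of the 13 comparisons, 1 in DLN/CD127hi against DLN/CD127-/lo Tregs (0.418% of all genes called) and 2 in DLN/CD127hi against DLN/naive Tregs (0.951%). With 0.0197% to 1.04% of all genes called per comparison, a count of 0 does not set the list apart. Trmt10c, a subunit of the mitochondrial RNase P that frees tRNAs from the precursor, was lower in DLN/CD127hi than in DLN/CD127-/lo Tregs (7.57 ± 8.06 against 88.9 ± 71.2 normalised CPM, SD, n = 3, log2 fold change -3.53, adjusted p = 0.034, edgeR) and than in DLN/naive Tregs (77.8 ± 68.3 normalised CPM, -3.33, adjusted p = 0.033). Mtrf1l, a mitochondrial translation release factor, was at 0 in all DLN/CD127hi libraries and at 32.9 ± 28.7 normalised CPM in DLN/naive Tregs (SD, n = 3, adjusted p = 0.0115, edgeR). Of 9 regulators of mitochondrial biogenesis none was called in any comparison, which this background gives as well. Their median log2 fold change between graft and SP/naive Tregs was -0.65, that of the 39 genes was 0.09, and that of the mitochondrial genes was 1.40.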

How the data were processed

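The deposited tables hold raw counts of read pairs per gene, made by the authors with Trim Galore, STAR on mm10 with EGFP added, and a counting step (the methods name HTSeq, and the files have STAR's layout). Versions are not given in the sources used here. STAR's gene counts leave multimapping pairs out. The column over both strands was used. The 4 rows that name no gene were kept out of the tests and used for mapping rates. SMART-Seq v4 does not mark strand, so antisense reads, and reads within the 14 bases that mt-Nd5 and mt-Nd6 share, cannot be assigned to a strand.

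The 25347 genes that reached 1 CPM in any library were fitted in edgeR 4.0.16 (R 4.3.3) with TMM factors over all 33 libraries and 1 mean per subset. The quasi-likelihood test with Benjamini-Hochberg adjustment was used for 13 comparisons and 3 interactions. Alternatives used DESeq2 1.42.0, limma 3.58.1 and sva 3.50.0. Shares were tested with exact two-sided permutation tests in Python 3.11.15. The tests of single genes and the permutation test were tried on simulated data, whereas the calculation of shares and the sequence comparison were not. The depth of each library, 844039 to 4615283 counts on genes, sets the precision.

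The members, gene lists, comparisons and tests were chosen with earlier results of these data known. Named were all members with an adjusted p under 0.05, the other members by their values, and, of the other lists, at most 4 called genes a comparison. The tRNA and rRNA shares that had been planned were not computed, since these genes had no row among the genes counted. Whether replicate numbers pair the libraries is not known. The correlation of deviations between libraries of the same number was -0.0807 to 0.0942 over the 13 comparisons, never above 0.1 in all 3 pairs. It ran over all 25347 genes, whatever their counts, so it cannot show whether libraries of the same number shared mice.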

Additional observations from a re-analysis of the deposited data

Results flagged for a closer look

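The mitochondrial share of DLN/CD127hi Treg replicate 2 was 2.95%. It lay far above the other 5 DLN libraries of tolerant mice (next 1.71%, lowest 1.15%) and above the other 8 DLN libraries as a whole (lowest 0.979%), with a gap to its neighbour of 0.692 and 0.631 of the whole range, past the 95% critical value of Dixon's test in both sets. The share of SP/naive CD4+ replicate 3 was 3.40%, against 2.06% to 2.53% in the other 5 CD4+Foxp3- libraries, with a gap of 0.651 of the range. In this way 6 sets of 6 or 9 libraries were examined, and chance alone flags about 1 in 20. Both libraries had high values for mt-Cytb, 9256 and 13153 normalised CPM, the highest of the DLN and of the CD4+Foxp3- libraries.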

How the results depend on the processing

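Of the 21 calls of single genes, 21 held with no filter on low counts and with library sizes taken from the other genes, 21 with the replicate numbers as a block, 20 with RLE normalization, 13 after ComBat-Seq with the sequencer as batch, 8 with limma-voom, 7 with DESeq2, 6 in a model of the compared libraries alone, 4 with at least 10 counts in at least 3 libraries, and 0 with the likelihood ratio test of edgeR; none changed direction, and the cause was not tested.

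Counts of called members changed as follows, in the order graft against SP/naive, SP/CD127hi and SP/CD127-/lo Tregs, SP/CD127-/lo against SP/naive, DLN/CD127hi against DLN/CD127-/lo and against DLN/naive Tregs, and SP/naive CD4+ against CD45+CD4- (6, 3, 4, 2, 2, 2 and 2). The likelihood ratio test gave 0 in all. DESeq2 gave 5, 0, 1, 0, 1, 1 and 0, limma-voom 3, 3, 4, 0, 0, 0 and 0, the stricter filter 3, 0, 0, 0, 1, 0 and 0, and the model of the compared libraries only 6 and then 0 in all others. ComBat-Seq gave 0 against SP/CD127-/lo, and 1 in each of the last 3 comparisons. RLE normalization gave 1 for the last, 1 for SP/naive Tregs against CD4+ (main 0), and 2 for the interaction of CD127hi against CD127-/lo (main 0). No filter gave 4 within tolerant DLN Tregs, 1 for SP/CD127hi against SP/naive Tregs, 1 for tolerant against naive CD4+, 2 for SP/naive Tregs against CD4+, and 2 for that interaction.

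The replicate numbers are not known to pair the libraries. With a replicate block the calls were 5 for graft against SP/CD127hi, 3 for SP/CD127-/lo and 2 for SP/CD127hi against SP/naive, 4 within tolerant DLN Tregs, 1 for tolerant against naive CD4+, 2 for SP/naive Tregs against CD4+, and 2 for the interaction.

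Leaving out 1 library gave 5 to 6, 2 to 4, 0 to 4, 0 to 2, 1 to 4, 0 to 2 and 1 to 3 calls in the 7 comparisons. It gave 0 to 1 for SP/CD127hi against SP/naive, 0 to 2 for tolerant against naive CD4+ and for SP/naive Tregs against CD4+, and 0 to 2 and 0 to 1 for the interactions of CD127hi against CD127-/lo and of tolerant mice. The lone remaining pair was assumed to vary like the other subsets. Share differences ranged from 1.94 to 3.15 points (graft), 0.800 to 1.21 (tolerant spleen), 0.120 to 0.478 (tolerant DLN), 0.233 to 0.607 (Tregs against CD4+), -0.525 to -0.194 (CD45+CD4-) and -1.56 to -1.20 (DLN against spleen). On the log2 ratio to nuclear OXPHOS counts, chosen after seeing the data, the graft difference of 0.97 passed (adjusted exact permutation p = 0.0273), and that of CD45+CD4- cells turned to 0.31 (adjusted exact permutation p = 0.0324), since their nuclear OXPHOS share was lower. The planned shares without rRNA equal the main value. At the depth of these tables mt-Co2, mt-Co3, mt-Atp6, mt-Atp8 and mt-Nd4l were not called under any setting.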

Other observations

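The columns that count each strand separately were used in no comparison. Over the 33 libraries the first strand column took 50.2% to 51.9% of the mitochondrial counts of both strand columns together, and 45.9% to 52.1% of those of mt-Nd6, the gene of the minus strand.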
